A study of Mus musculus with 9 samples.

Results

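Notch receptors, ligands and transcriptional targets were examined in cultured cells of the newborn mouse skull roof that carried the Osx1-Cre label. The set was chosen by gene symbol and comprised 10 of the 25860 genes in the count table. They were the receptors Notch1, Notch2, Notch3 and Notch4, the ligands Jag1, Jag2 and Dll1, and the target genes Hes1, Hey1 and Heyl. All 10 symbols were found, and 9 passed the filter on low counts and were tested, Jag2 being too low. The 9 RNA sequencing libraries fell into 5 with the genotype label IRE1KO and 4 with the label WT, and they came from calvarial cells that were sorted by flow cytometry, grown in alpha-MEM with 10% serum and harvested at 90% confluence. Each library pooled 3 to 5 pups aged 2 to 4 days. In Osx1-Cre mice the osterix (Sp7) promoter, active in bone-forming cells, drives Cre recombinase, and the labels describe the cells of both genotypes as Osx1-Cre cells. The labels do not give the alleles, the strain or whether the WT pups were littermates. IRE1, the product of Ern1, is an RNase and kinase of the endoplasmic reticulum that activates the transcription factor XBP1s. The comparison asks how the Notch genes differ when IRE1 is removed from cells of this lineage.

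Notch signalling passes between touching cells. A Jagged or Delta ligand on one cell pulls on a Notch receptor of its neighbour, ADAM10 and then the gamma-secretase complex cut the receptor, and its freed intracellular domain joins RBPJ and a Mastermind protein on DNA to switch on genes of the Hes and Hey families. Those targets encode repressors of transcription. In the skeleton the pathway is known for holding mesenchymal progenitors in an immature state, Jag1 mutations disturb skull and facial bones, and the Hes and Hey proteins can bind RUNX2.

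The 10 genes lay on chromosomes 2 (Notch1 and Jag1), 3 (Notch2 and Hey1), 4 (Heyl), 12 (Jag2), 16 (Hes1) and 17 (Notch3, Notch4 and Dll1), none of them on chromosome 11 with Ern1. In GRCm38 coordinates of GENCODE M21, Notch2 (ENSMUSG00000027878) ran from 98013527 to 98150361, Hes1 (ENSMUSG00000022528) from 30064384 to 30067796, Jag1 (ENSMUSG00000027276) from 137081456 to 137116644 and Heyl (ENSMUSG00000032744) from 123233556 to 123249875. Promoter sequence was available here from RefSeq (GRCm38.p6) for 7 of the 10 genes, in 8 windows of 250 bases ahead of an annotated start. No window was available for the targets Hes1, Hey1 and Heyl. The windows of the most abundant receptor (Notch2), of the receptor with a match to the motif of XBP1s, IRE1's own transcription factor (Notch3), and of the receptor with the lowest level (Notch4) are shown 5′ to 3′ on the strand of the gene, with capitals for that match.
Notch2, chr3:98013288-98013537, plus strand: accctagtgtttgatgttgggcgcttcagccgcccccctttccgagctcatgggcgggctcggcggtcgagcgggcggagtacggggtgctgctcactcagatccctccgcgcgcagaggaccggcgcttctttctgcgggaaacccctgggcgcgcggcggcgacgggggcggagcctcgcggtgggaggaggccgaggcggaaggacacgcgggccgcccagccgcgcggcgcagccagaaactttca
Notch3, chr17:32166891-32167140, minus strand: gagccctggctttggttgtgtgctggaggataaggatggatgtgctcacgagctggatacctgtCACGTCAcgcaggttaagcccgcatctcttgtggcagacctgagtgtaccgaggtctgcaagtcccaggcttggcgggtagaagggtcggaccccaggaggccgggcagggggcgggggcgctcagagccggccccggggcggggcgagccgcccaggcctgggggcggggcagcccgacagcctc
Notch4, chr17:34564045-34564294, plus strand: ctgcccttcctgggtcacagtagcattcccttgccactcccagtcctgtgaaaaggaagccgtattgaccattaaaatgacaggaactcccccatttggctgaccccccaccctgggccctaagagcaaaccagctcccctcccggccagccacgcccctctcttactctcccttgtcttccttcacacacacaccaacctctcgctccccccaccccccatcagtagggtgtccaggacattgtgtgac

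The match in the Notch3 window read CACGTCA, the reverse complement of TGACGTG, and ended 180 bases ahead of the start. Both strands were searched for TGACGTG (XBP1s, a word that ATF and CREB factors also bind), GTGGGAA (RBPJ) and CACGTG (E-box, used by Hey proteins), and a TGACGTG and a CACGTG can share letters. Among 32851 mouse promoter windows of the same length, 1.65% held TGACGTG, 5.42% GTGGGAA and 6.02% CACGTG. Apart from the Notch3 match, none of the 8 windows held any of these words. The promoters of the target genes Hes1, Hey1 and Heyl were not searched. A match describes letters and not a bound site. Base composition differed between the windows, with 72.0% G and C for Notch2, 68.8% for Notch3 and 58.4% for Notch4, against a median of 52.4% over all windows.

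Library totals were 18784636 to 22028075 counts, and 3 counts, the floor used here, corresponded to 0.136 to 0.16 CPM, counts scaled to library size. WT library 4 stood apart, with a first principal component of 56.7 against -23.4 to 15.1 for the others. The lineage genes Runx2 and Sp7 and the collagens Col1a1 and Col1a2 were expressed in all libraries, whereas Bglap (osteocalcin), a product of mature osteoblasts, did not exceed 0.192 CPM. Ern1 itself was at 49.8 to 55.8 CPM in IRE1KO, against 41.5 to 54.2 CPM in WT libraries, a count per gene that does not show whether exons are missing and so does not check the genotype labels. Levels below are TMM-scaled CPM, and differences are log2 fold changes of IRE1KO over WT from edgeR's quasi-likelihood test, with p-values adjusted by Benjamini-Hochberg over all 13712 tested genes. In bulk libraries, fewer cells of a type and less RNA per cell cannot be told apart.

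The cells expressed a Notch2, Jag1 and Hes1 dominated set of Notch genes in both genotypes, and no member passed the test between them. Set per kilobase of merged exons, Notch2 was highest with 25.1 ± 1.23 CPM per kb in IRE1KO (SD, n = 5) and 22.8 ± 1.00 CPM per kb in WT (SD, n = 4). Hes1 followed at 13.9 ± 0.848 CPM per kb in IRE1KO and 17.2 ± 2.90 CPM per kb in WT, and then Jag1 at 9.53 ± 1.43 CPM per kb in IRE1KO against 10.5 ± 1.79 CPM per kb in WT. The order Notch2, Hes1, Jag1 held in each of the 9 libraries on this scale. Notch3, at 5.84 ± 0.304 CPM per kb in IRE1KO and 6.33 ± 1.34 CPM per kb in WT, and Notch1, at 5.62 ± 0.198 CPM per kb in IRE1KO against 5.47 ± 1.12 CPM per kb in WT, did not differ beyond their spread. The remaining genes were far lower. Hey1 was at 0.436 ± 0.138 CPM per kb in IRE1KO and 0.548 ± 0.244 in WT, Notch4 at 0.322 ± 0.0176 in IRE1KO against 0.411 ± 0.0543 in WT, Heyl at 0.0871 ± 0.0521 in IRE1KO against 0.371 ± 0.364 in WT, Dll1 at 0.133 ± 0.0634 in IRE1KO against 0.119 ± 0.0738 in WT, and Jag2 at 0.0332 ± 0.0221 CPM per kb in IRE1KO against 0.0548 ± 0.0405 CPM per kb in WT. Among these, the ranges of genes next to each other in this order overlapped over the 9 libraries, but within IRE1KO Notch4, at 0.297 to 0.345 CPM per kb, lay above every Heyl and Dll1 value. The order at the top depends on the length used: with the longest annotated transcript in place of merged exons, Hes1 stood at 19.3 CPM per kb in IRE1KO and 23.8 in WT, where Notch2 was at 25.8 in IRE1KO and 23.4 in WT, and Notch1 stood above Notch3, with 8.43 CPM per kb in IRE1KO and 8.21 in WT for Notch1 and 5.89 in IRE1KO and 6.39 in WT for Notch3.

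**Figure D1:**
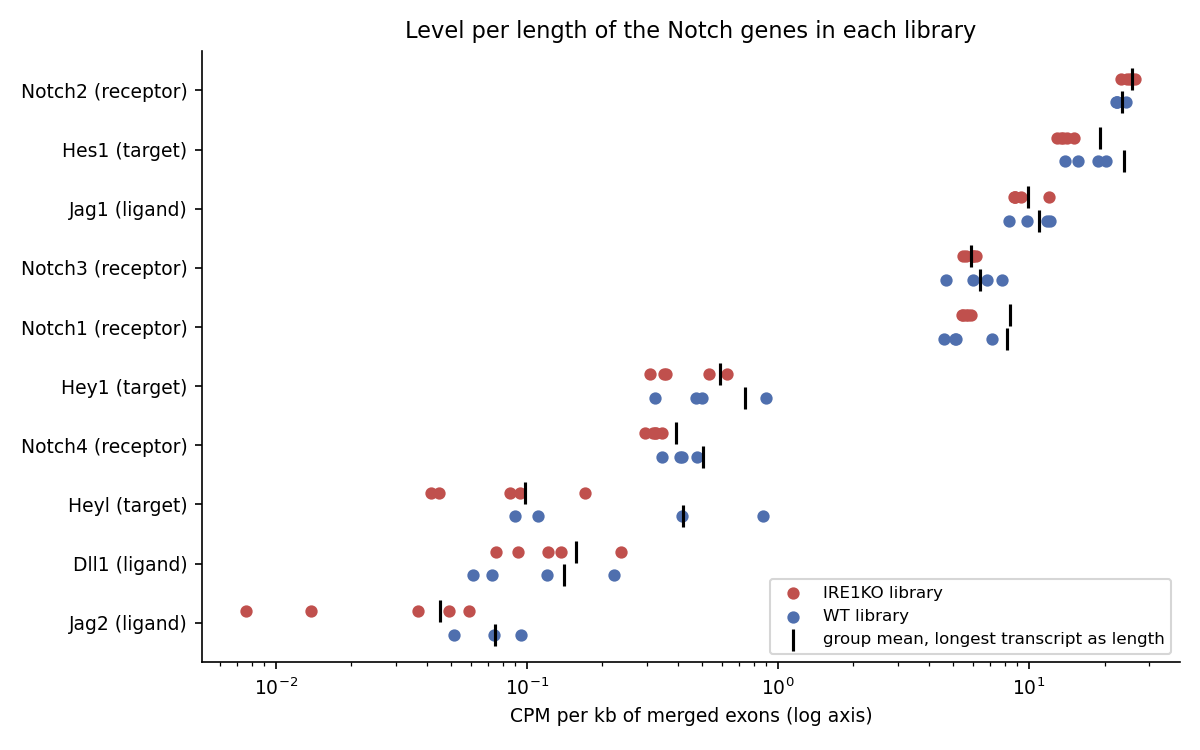
Level of each Notch gene in every library, as CPM per kb of merged exons on a log axis, with IRE1KO libraries in red above WT libraries in blue and black ticks for the group mean when the longest transcript sets the length. Notch2, Hes1, Jag1, Notch3 and Notch1 all lie at or above 4.58 CPM per kb and the other genes at or below 0.896 CPM per kb; Jag2 in WT library 4 had 0 counts and is not drawn.

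In other terms, Notch2 made up 68.0% ± 1.45 of the summed receptor level per length in IRE1KO (SD, n = 5) and 65.3% ± 3.20 in WT (SD, n = 4). Notch4 made up 0.875% ± 0.0476 in IRE1KO and 1.18% ± 0.201 in WT. Of the 3 ligands, Jag1 took 98.3% ± 0.905 in IRE1KO and 98.4% ± 0.455 in WT, and of the 3 targets Hes1 took 96.4% ± 0.925 in IRE1KO and 94.6% ± 3.99 in WT. These shares describe RNA and say nothing of protein at the cell surface. They rest on merged exons and depend on the length used. With the longest transcript the Notch2 share is lower. In IRE1KO that length moves Notch1 from 5.62 to 8.43 CPM per kb and Notch2 only from 25.1 to 25.8.

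None of the 9 tested genes passed an adjusted p of 0.05, a threshold that 87 of all 13712 tested genes (0.634%) passed, and DESeq2 and limma voom called none of them either. An unadjusted p under 0.05 was reached by 4 of the 9, against 16.5% of all tested genes. Notch2 was the one in the higher direction, which 7.14% of tested genes reached, and Notch4, Hes1 and Heyl were the 3 in the lower direction, which 9.36% reached. The groups overlapped for all 10 genes, whereas 6.93% of tested genes had groups that did not overlap. The median log2 fold change of the 9 tested members was -0.14, beside -0.0050 over all tested genes, with 6 of the 9 and 7075 of the 13712 below 0. The WT libraries differed more among themselves than the IRE1KO libraries for 9 of the 10 genes by coefficient of variation, Notch2 being the exception, and for 82.6% of all tested genes.

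**Figure D2:**
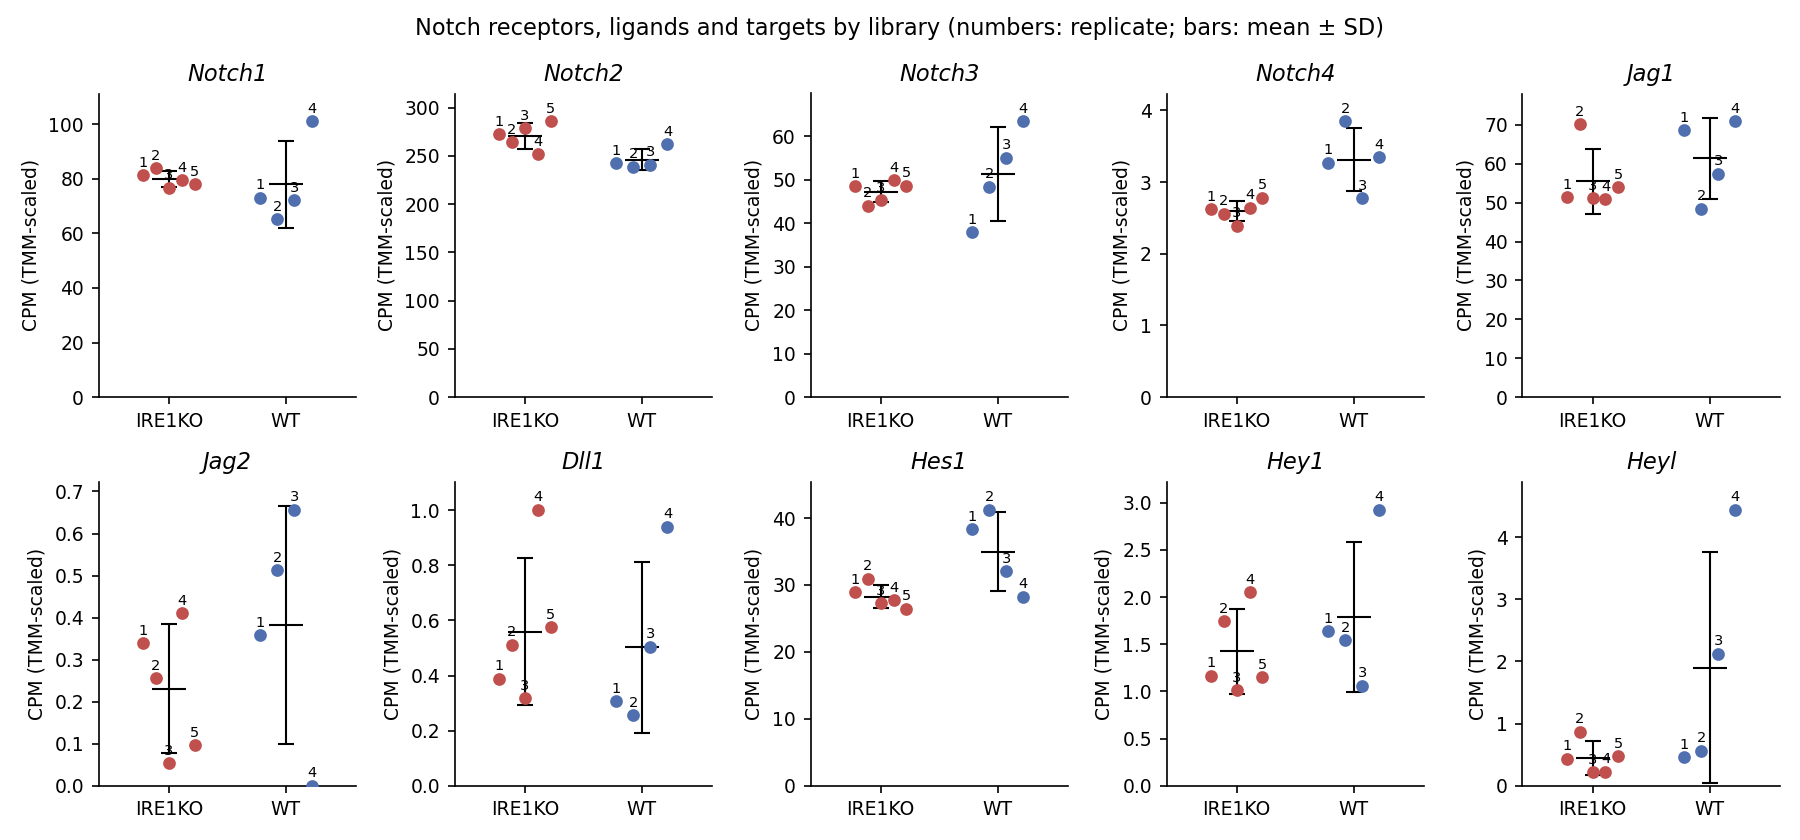
CPM (TMM-scaled, linear axes from 0) of the 10 Notch genes in each IRE1KO library (red, left) and WT library (blue, right), with replicate numbers above the points and bars for the mean ± SD. The groups overlap in every panel, and WT library 4 is the highest WT library for Notch1, Notch2, Notch3, Jag1, Dll1, Hey1 and Heyl and the lowest for Hes1 and Jag2.

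Among the receptors, Notch2, the principal Notch receptor gene of these cells, was at 272, 264, 279, 252 and 286 CPM in IRE1KO libraries 1 to 5, against 243, 239, 241 and 262 CPM in WT libraries 1 to 4. All 5 IRE1KO libraries exceeded the WT mean, and only WT library 4 reached into the IRE1KO range. The log2 fold change was 0.14 ± 0.05 SE (95% interval 0.03 to 0.25, adjusted p = 0.217), so that a difference above 1.19-fold lay outside the interval. Under the alternatives tried it stayed between 0.12 and 0.17, with adjusted p from 0.0797 to 0.494.

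Notch1, the receptor best known from T cell development and vascular patterning, was at 81.3, 84.0, 76.8, 79.6 and 78.0 CPM in IRE1KO libraries, against 73.1, 65.2, 72.2 and 101 CPM in WT libraries. The IRE1KO values lay within a narrow band between WT library 4 and the other 3 WT libraries. For Notch1 the log2 fold change was 0.04 ± 0.11 SE (95% interval -0.22 to 0.29, adjusted p = 0.902). Without WT library 4 it was 0.19 and without WT library 2 it was -0.04, so that no direction can be given. Exons of Notch1 overlap the antisense transcripts 0610009E02Rik and Gm13568. Since the strand setting of the counting is not given in the sources used here, reads of these could be shared. The count table gives them 284 and 45 counts over all libraries. Exons of other members overlap transcripts that the count table lacks. These are Gm42820 on the same strand for Notch2, and Gm17276 and A930024N18Rik on the opposite strand for Notch3 and Dll1, respectively.

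Notch3, which is known for its role in pericytes and vascular smooth muscle, was at 48.5, 44.0, 45.3, 49.8 and 48.6 CPM in IRE1KO libraries, against 37.8, 48.4, 55.1 and 63.4 CPM in WT libraries. The WT libraries spread to both sides of the IRE1KO range. For Notch3 the log2 fold change was -0.12 ± 0.13 SE (95% interval -0.40 to 0.17, adjusted p = 0.681) and 0.0043 without WT library 4. The 10 mural cell markers, among them Acta2, Myh11, Rgs5 and Cspg4, summed to 4799 to 5207 CPM in IRE1KO, against 3219 to 6907 CPM in WT, and none of the 9 tested passed. Of those 9, 4 had negative log2 fold changes. Mcam was the most negative, at 19.0 to 25.4 CPM in IRE1KO against 29.9 to 73.4 CPM in WT (-1.05 ± 0.25 SE, adjusted p = 0.107). Within WT, the library with the most mural marker RNA (library 1, 6907 CPM) had the least Notch3, and the library with the least of it (library 4) had the most Notch3. Most of that sum was Acta2, at 4461 CPM in WT library 1 and 2053 CPM in WT library 4. The list was not uniform, since 8 of its 10 genes were lower in WT library 4 than in WT library 1 whereas the pericyte channel genes Abcc9 and Kcnj8 were higher, Abcc9 at 10.1 CPM in library 4 and 3.22 CPM in library 1. The part of mural-type cells in the Notch3 level was not tested.

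Notch4, a receptor best known from endothelium, was at 2.62, 2.56, 2.39, 2.64 and 2.78 CPM in IRE1KO libraries, against 3.27, 3.85, 2.78 and 3.34 CPM in WT libraries. IRE1KO library 5 and WT library 3 met at 2.78 CPM, and the other IRE1KO libraries lay below every WT library. For Notch4 the log2 fold change was -0.35 ± 0.13 SE (95% interval -0.63 to -0.07, adjusted p = 0.221), with 45 to 58 counts behind each IRE1KO value and 55 to 75 behind each WT value. The 10 endothelial markers summed to 16.1 to 20.9 CPM in IRE1KO, against 22.4 to 35.6 CPM in WT. Within WT, library 2 had the most Notch4 (3.85 CPM) and the lowest marker sum (22.4 CPM). WT library 4 had the highest sum, with Tek at 17.5 CPM and Erg at 8.73 CPM, and its Notch4 was at 3.34 CPM. Of these markers Tie1 and Cldn5 had 0 counts in every library, and Pecam1 was at 0.0531 to 0.291 CPM in IRE1KO, against 0.562 to 0.924 CPM in WT and was the 1 list member of 7 tested to pass, in the lower direction (adjusted p = 0.0497). Pecam1 lies on the same chromosome as Ern1. Its IRE1KO values reached from below to above the floor of 3 counts, which is 0.136 to 0.16 CPM in these libraries. The part of endothelial cells in the Notch4 level was not tested.

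Among the ligands, Jag1, the Jagged ligand of bone and vessel cells, was at 51.3, 70.3, 51.1, 50.9 and 54.0 CPM in IRE1KO libraries, against 68.6, 48.5, 57.4 and 71.0 CPM in WT libraries. IRE1KO library 2 stood with the higher WT libraries, and WT library 2 lay below every IRE1KO library. The log2 fold change was -0.14 ± 0.13 SE (95% interval -0.45 to 0.16, adjusted p = 0.624). Dll1, a Delta ligand with well known roles in somites and in neural progenitors, had 6 to 22 counts per IRE1KO library and 5 to 18 per WT library. Its levels were 0.388, 0.512, 0.319, 1.00 and 0.575 CPM in IRE1KO, against 0.306, 0.257, 0.505 and 0.941 CPM in WT, with library 4 the highest of each genotype. Its log2 fold change of 0.17 ± 0.46 SE (95% interval -0.86 to 1.20, adjusted p = 0.887) corresponds to a fold between 0.552 and 2.30, so that a 2-fold higher level lay inside the interval, and it was 0.66 without WT library 4 and -0.05 without WT library 2. Jag2 had 7, 5, 1, 9 and 2 counts in IRE1KO libraries, against 7, 10, 13 and 0 in WT libraries. A count of 0 in WT library 4 allows up to 0.157 CPM, and no test was made for it.

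Among the targets, Hes1, the repressor most widely induced by Notch, was at 28.9, 30.9, 27.3, 27.8 and 26.5 CPM in IRE1KO libraries, against 38.4, 41.3, 32.0 and 28.3 CPM in WT libraries. The IRE1KO libraries were close together and all below the WT mean, and WT library 4 fell among them while the other 3 WT libraries lay above every IRE1KO library. The log2 fold change was -0.31 ± 0.11 SE (95% interval -0.54 to -0.07, adjusted p = 0.205). Without WT library 4 it was -0.40 with an adjusted p of 0.038, in a fit where 399 of 13780 genes passed (2.9%), and over 17 alternatives the adjusted p ran from 0.038 to 0.371, all with the same sign.

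Hey1, a repressor induced by Notch and by BMP, was at 1.16, 1.74, 1.01, 2.05 and 1.15 CPM in IRE1KO libraries, against 1.63, 1.54, 1.06 and 2.93 CPM in WT libraries. Library 4 was again the highest of each genotype, and otherwise the groups were mixed. Its log2 fold change was -0.32 ± 0.32 SE (95% interval -1.05 to 0.40, adjusted p = 0.651) and 0.02 without WT library 4. Heyl, another member of the Hey family and a target of Notch in mural cells, was at 0.437, 0.870, 0.212, 0.228 and 0.480 CPM in IRE1KO libraries, against 0.460, 0.565, 2.12 and 4.44 CPM in WT libraries. WT libraries 3 and 4 lay above every IRE1KO library, and WT libraries 1 and 2 lay inside the IRE1KO range. The counts behind these levels were 4 to 17 in IRE1KO and 9, 11, 42 and 85 in WT. Its log2 fold change was the most negative of the set at -2.08 ± 0.71 SE (95% interval -3.68 to -0.48, adjusted p = 0.205). It was -1.24 without WT library 4 (adjusted p = 0.294) and -2.40 without WT library 1 (adjusted p = 0.0548), within a range of adjusted p from 0.0548 to 0.488 over 16 alternatives.

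Schwann cell and glial markers, and some but not all chondrocyte and endothelial markers, varied alongside Heyl. The 10 glial markers summed to 15.0, 19.5, 13.9, 13.4 and 15.3 CPM in IRE1KO libraries 1 to 5, against 23.4, 56.9, 63.1 and 89.6 CPM in WT libraries 1 to 4. Of the 7 tested, Ngfr passed in the lower direction (adjusted p = 0.0452), and all 7 had negative log2 fold changes. Ngfr lies on chromosome 11, as does Ern1. Sox10, the defining transcription factor of that lineage, was at 0 to 0.973 CPM in IRE1KO, against 0.970 to 9.83 CPM in WT. WT libraries 3 and 4 were highest for both Heyl and the marker sum, and WT library 2 was high for the markers at 56.9 CPM but not for Heyl at 0.565 CPM. Of the 10 chondrocyte markers 9 were tested, none passed, and all 9 had negative log2 fold changes. Lect1 (chondromodulin) was at 0 to 0.957 CPM in IRE1KO libraries, against 1.28, 0.308, 1.97 and 9.88 CPM in WT libraries, and the cartilage collagen gene Col9a1 at 0.106 to 1.00 CPM in IRE1KO libraries, against 0.715, 0.359, 1.31 and 6.22 CPM in WT libraries. Like Heyl, both were highest in WT libraries 4 and 3, and unlike the glial sum they were low in WT library 2. Other markers of the list went otherwise, Acan at 4.70, 4.26, 2.88 and 3.92 CPM and Matn3 at 2.04, 0.975, 0.657 and 1.67 CPM in WT libraries 1 to 4. The endothelial marker Tek, at 7.35, 4.00, 7.93 and 17.5 CPM there, was also highest in WT libraries 4 and 3. Esam of the same list, at 7.92, 8.73, 4.04 and 1.52 CPM, was not. The summed chondrocyte list shows no such pattern, and Col2a1 makes up most of it, at 616 to 1272 CPM in IRE1KO and 1099 to 1301 CPM in WT. Within WT the pattern was not particular to these markers. The macrophage and osteoclast sum, at 327, 210, 456 and 483 CPM in WT libraries 1 to 4, was also highest in libraries 4 and 3. So were the osteoblast sum, at 28568, 27524, 32292 and 54068 CPM, and the first principal component. The mural and skeletal muscle sums were lowest in those libraries. The part of glial cells, chondrocytes or endothelial cells in the Heyl values was not tested.

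**Figure D3:**
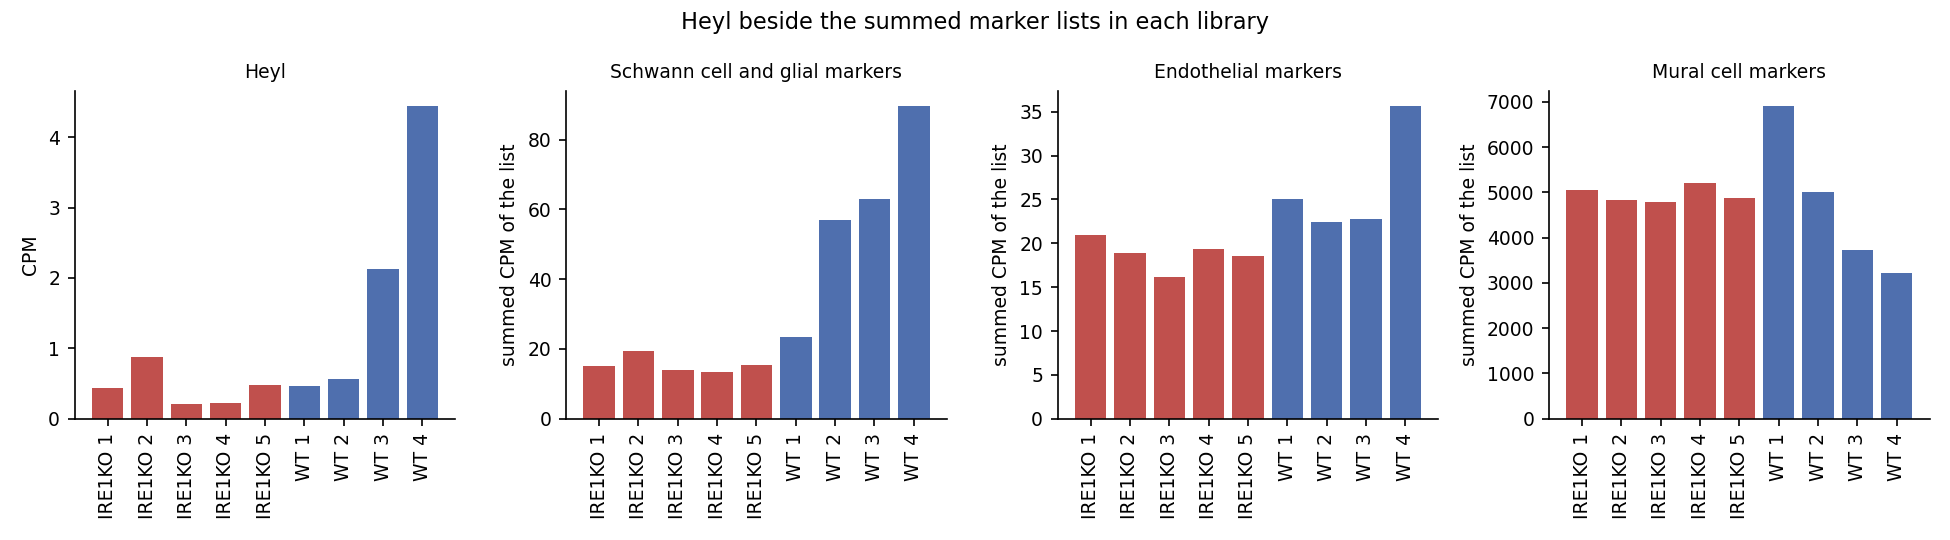
Heyl in CPM and the summed CPM of the Schwann cell and glial, endothelial and mural cell marker lists in each library, with IRE1KO libraries in red on the left and WT libraries in blue on the right of each panel (bars start at 0). Heyl and the glial sum are highest in WT library 4, at 4.44 and 89.6 CPM, where the mural sum is lowest at 3219 CPM.

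Because a ratio of 2 genes within a library does not depend on how libraries are scaled, 4 such log2 ratios of counts were compared by a two-sided exact permutation test over every way to divide the 9 values into 5 and 4, whose smallest possible p is 0.00794. Notch3 to Notch2 averaged -2.52 ± 0.11 in IRE1KO (SD, n = 5) and -2.29 ± 0.28 in WT (SD, n = 4), a difference of -0.23 (exact p = 0.143, adjusted p = 0.201 over the 4 ratios). Jag1 to Notch2 averaged -2.29 ± 0.22 in IRE1KO and -2.02 ± 0.21 in WT, a difference of -0.28 (exact p = 0.103, adjusted p = 0.201). Hey1 to Hes1 averaged -4.34 ± 0.40 in IRE1KO and -4.35 ± 0.74 in WT, a difference of 0.01 (exact p = 0.968, adjusted p = 0.968). Heyl to Hey1 averaged -1.75 ± 0.84 in IRE1KO and -0.40 ± 1.39 in WT, a difference of -1.35 (exact p = 0.151, adjusted p = 0.201). No ratio passed with all libraries, and both target pairs had a wider spread than the receptor pair. Leaving out 1 library moved 2 of them to an unadjusted exact p under 0.05. Without WT library 1 the difference for Notch3 to Notch2 was -0.36 (exact p = 0.0179, adjusted p = 0.0714), and without IRE1KO library 2 that for Jag1 to Notch2 was -0.37 (exact p = 0.0286, the smallest possible there, adjusted p = 0.114).

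The rest of the pathway was read from 6 lists of 86 genes, of which 75 were tested. None passed an adjusted p of 0.05 in edgeR, 11 of the 75 (14.7%) reached an unadjusted p under 0.05 against 16.5% of all tested genes, and 5 (6.67%) had groups that did not overlap against 6.93%. DESeq2 called 3 of them, Gata2, Gata3 and Numbl, among 568 calls in all (4.14%), and limma voom called none. Without WT library 1 edgeR called 7, in a fit in which 8.63% of all genes passed, among them Maml3, Lfng and Gata2 in the lower direction and Fbxw7, Bmp2k and Numbl in the higher one.

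Further ligands and ligand-like proteins had 7 tested members of 9, none of which passed, with a median log2 fold change of -0.35. Mfap5, a microfibril protein that can bind Notch1 and Jag1, was at 156 ± 16.2 CPM in IRE1KO (SD, n = 5) and 125 ± 23.2 CPM in WT (SD, n = 4), with a log2 fold change of 0.31 ± 0.13 SE. Dlk2, a membrane protein related to Delta ligands, was at 3.42 ± 0.831 CPM in IRE1KO against 5.07 ± 1.97 CPM in WT, and Dner, a Delta-like protein best known from neurons, at 17.3 ± 3.39 CPM in IRE1KO against 22.3 ± 6.05 CPM in WT. Dll4, the ligand of sprouting endothelium, had at most 3 counts in any library and 0 in 6 of the 9, and Dll3 had at most 6 counts.

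Further Hes, Hey and target genes had 9 tested members of 16, none past the test, with a median log2 fold change of -0.17. The transcription factor genes Gata2 and Gata3, which Notch induces in blood and T cells, came closest: Gata2 was at 17.5 ± 3.22 CPM in IRE1KO, against 27.1 ± 3.02 CPM in WT (log2 fold change -0.63 ± 0.14 SE, adjusted p = 0.0801, groups not overlapping), and Gata3 at 4.73 ± 0.554 CPM in IRE1KO against 7.53 ± 2.11 CPM in WT (-0.67 ± 0.18 SE, adjusted p = 0.139). Hey2, the closest relative of Hey1, was at 1.31 ± 0.370 CPM in IRE1KO against 1.90 ± 1.15 CPM in WT (-0.53 ± 0.38 SE). WT library 1 held the highest Hey2 level at 3.58 CPM, against 1.01 to 1.69 CPM in the other WT libraries, and without it the log2 fold change was -0.025. Hes5, a strict Notch target in neural progenitors, had 0 counts in every library, and the feedback inhibitor Nrarp had at most 10.

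Of the genes for cutting the receptor, all 11 were tested and none passed, with a median of -0.065. Aph1b, a subunit of gamma-secretase, was at 25.7 ± 0.626 CPM in IRE1KO, against 28.3 ± 1.21 CPM in WT (log2 fold change -0.14 ± 0.04 SE, adjusted p = 0.177). Adam10, the protease that makes the first cut after ligand binding, was at 224 ± 6.25 CPM in IRE1KO against 240.0 ± 4.57 CPM in WT (-0.10 ± 0.04 SE, adjusted p = 0.213). The groups did not overlap for either gene, though both differences were under 1.2-fold. Ncstn, which encodes nicastrin, was at 183 ± 5.95 CPM in IRE1KO against 192 ± 5.92 CPM in WT. Of the genes that put sugars on the receptor, 8 of 9 were tested and none passed, with a median of -0.058. Lfng, a Fringe enzyme that shifts Notch towards Delta ligands, was at 9.48 ± 0.646 CPM in IRE1KO, against 11.6 ± 1.59 CPM in WT (-0.29 ± 0.10 SE, adjusted p = 0.215), Gxylt2, a xylosyltransferase, at 40.9 ± 5.06 CPM in IRE1KO against 33.9 ± 6.35 CPM in WT, and Pofut1, the O-fucosyltransferase of Notch, at 94.3 ± 2.95 CPM in IRE1KO against 99.9 ± 5.74 CPM in WT.

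Of the nuclear complex and corepressors all 22 were tested and none passed, with a median of 0.02. Maml3 and Maml2, coactivators of the Mastermind family, were at 18.0 ± 0.928 (Maml3) and 52.5 ± 1.89 CPM (Maml2) in IRE1KO, against 22.2 ± 3.57 (Maml3) and 61.3 ± 8.18 CPM (Maml2) in WT, with log2 fold changes of -0.31 ± 0.11 SE and -0.22 ± 0.08 SE. Rbpj itself, named for its role after its value was seen, was at 63.3 ± 7.16 CPM in IRE1KO against 77.0 ± 15.8 CPM in WT (-0.28 ± 0.14 SE, adjusted p = 0.341). Of the genes of endocytosis, ubiquitin ligases and turnover, 18 of 19 were tested and none passed, with a median of 0.017. Numbl, a Numb-like inhibitor of Notch, was at 124 ± 3.52 CPM in IRE1KO, against 108 ± 8.15 CPM in WT (0.20 ± 0.05 SE, adjusted p = 0.127), and Fbxw7, the ubiquitin ligase subunit that marks the intracellular domain for degradation, at 32.5 ± 0.44 CPM in IRE1KO against 27.6 ± 3.38 CPM in WT (0.24 ± 0.07 SE, adjusted p = 0.181). The groups did not overlap for either. Bmp2k, an endocytic kinase, was at 59.5 ± 1.65 CPM in IRE1KO against 51.7 ± 8.49 CPM in WT.

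**Figure D4:**
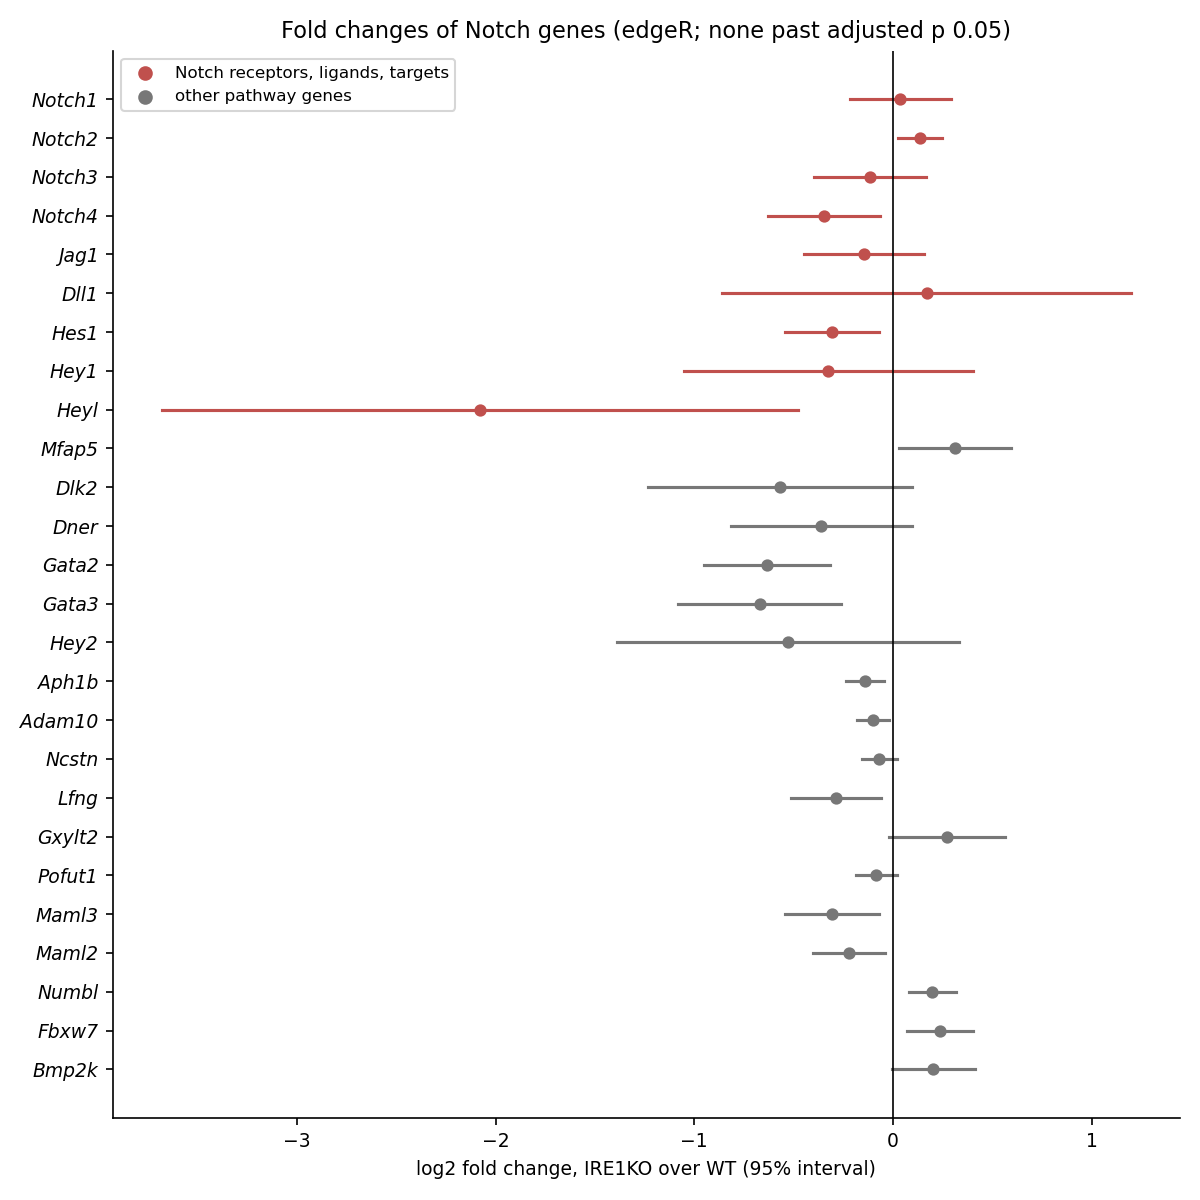
Log2 fold change of IRE1KO over WT with its 95% interval for the 9 tested Notch members (red) and the genes named from the 6 pathway lists (grey). All estimates other than that of Heyl lie within 0.7 of 0 and none passed an adjusted p of 0.05; the Heyl interval is the widest, from -3.68 to -0.48.

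**Figure D5:**
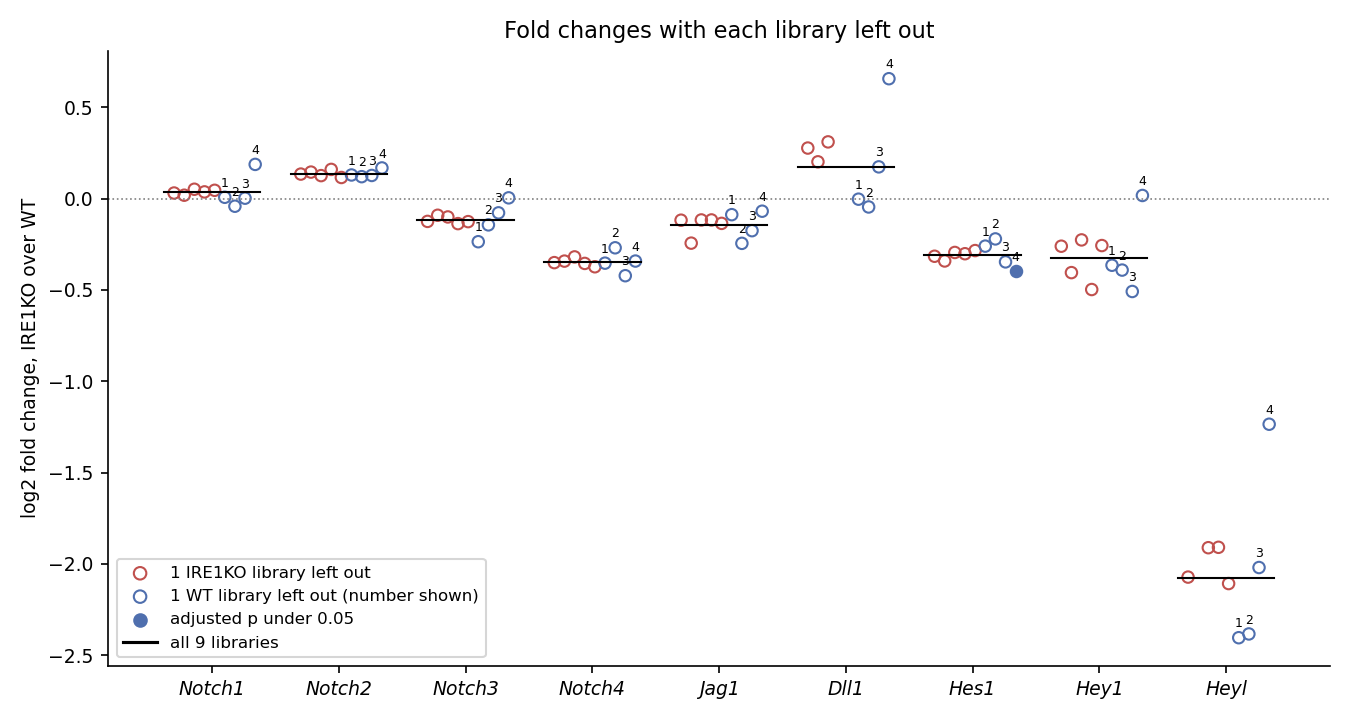
Log2 fold change of IRE1KO over WT for the 9 tested members with each IRE1KO library (red) or WT library (blue, numbered) left out, beside the value from all 9 libraries (black line); a filled point marks an adjusted p under 0.05. Hes1 without WT library 4 is the filled point among the members, and Hey1, Dll1 and Heyl move most when that library is left out.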

How the data were processed

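The values the authors deposited are counts of reads for each gene in each library, not normalized; no other file was used. Per the labels' protocols, directional libraries from poly-A RNA were prepared and sequenced (Illumina NextSeq) as 1 batch, so no library batch could be set against genotype; the sources used here give neither litter nor sort day. STAR, limma and mm10 appear in the submitters' processing notes, with no version or role stated; counting program and strand setting: not given in the sources used here. The replicates are called biological in the labels.

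Counts were tested in R 4.3.3 with edgeR 4.0.16 (filterByExpr, TMM, robust quasi-likelihood test, genotype as the sole term, Benjamini-Hochberg, threshold 0.05), with DESeq2 1.42.0 and limma 3.58.1 voom as alternatives. Python 3.11.15, NumPy 2.4.6, SciPy 1.17.1, pandas 2.3.3 and matplotlib 3.10.9 did the rest. SE and 95% intervals were computed for each gene from the log2 fold change, F statistic and degrees of freedom of edgeR's test. The intervals are not adjusted for the number of genes tested, so one can exclude 0 where the adjusted p does not pass. Ratios used a prior count of 0.5. Lengths and positions came from GENCODE M21 (GRCm38), matched by identifier for 24957 of 25860 genes. Counting error is the sole error that floors cover. The members and lists were chosen with earlier results of these data known. Named genes were all members and, per pathway list, any gene past the threshold plus the 3 with the smallest p (1 result is not reported here); Ccn3, Xxylt1, Cnmd and Adgre1 were matched under older symbols. Marker lists covered osteoblasts, endothelium, mural cells, chondrocytes, glia, macrophages and skeletal muscle. Deviations between libraries of a group exceeded sampling noise, least for IRE1KO 3 and 5 (chi-square per degree of freedom 1.91). The other IRE1KO pairs were at 4.03 to 10.0. Each library counted as 1 replicate, as labelled. The value for 3 and 5 cannot tell separate pools of cells from separate preparations of the same pool. The summed chondrocyte markers, mostly Col2a1, were at 722 to 1422 CPM in IRE1KO and 1391 to 1441 CPM in WT, macrophage and osteoclast markers at 322 to 508 CPM in IRE1KO and 210.1 to 483 CPM in WT, skeletal muscle markers at 60.6 to 74.0 CPM in IRE1KO and 42.6 to 117 CPM in WT, and osteoblast markers at 36941 to 41044 CPM in IRE1KO and 27524 to 54068 CPM in WT; no tested gene of these 4 lists passed.

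On simulated counts with 200 changed genes among 13712, for this comparison, the test found 67.2% of genes changed 1.5-fold, 79.1% of those changed 2-fold and 98.5% of those changed 4-fold. False calls made up 4.68% of 171. The simulated genotypes had the same spread for each gene and no library set apart. In the real libraries 82.6% of tested genes varied more in WT, and WT library 4 stood apart. The rates can therefore be too high for the real comparison. They were pooled over all levels and were not measured for genes of low counts such as Heyl.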

Additional observations from a re-analysis of the deposited data

Results flagged for a closer look

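Single libraries that lay far from the rest of their group were sought for the 28 genes chosen by the naming rule, in 56 groups of 4 or 5 libraries, and 5 were found, where chance gives about 1 in 20 groups. Notch2 was at 262.1 CPM in WT library 4, against 238.8 to 242.6 CPM in the other WT libraries. Jag1 was at 70.25 CPM in IRE1KO library 2, against 50.87 to 54.04 CPM in the other IRE1KO libraries. Pofut1 was low in IRE1KO library 4, at 89.16 CPM against 94.22 to 96.19 CPM, and in WT library 1, at 91.37 CPM against 101.9 to 104 CPM. Maml3 was at 16.85 CPM in WT library 1, below every IRE1KO library, against 23.73 to 24.3 CPM in the other WT libraries.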

How the results depend on the processing

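The number of genes called over the whole table was 87 and depended on the processing: it was 568 with DESeq2, 16 with limma voom, 46 with upper-quartile scaling, 45 with no filter on low counts, 10 with IRE1KO libraries 3 and 5 summed, and 2 to 1192 with 1 library left out. No Notch member was called under any alternative except Hes1 without WT library 4 (range 0 to 1 with 1 library left out). Of the pathway genes, 3 were called with DESeq2 and 0 to 7 with 1 library left out, the 7 without WT library 1. Across the 27 genes chosen by the naming rule and their alternatives, 439 of 455 values kept direction and side of the threshold, 11 passed it and 5 changed sign. The 5 belonged to Notch1 (-0.042 to 0.19 with 1 library left out), Notch3 (-0.24 to 0.0043), Dll1 (-0.046 to 0.66) and Hey1 (-0.51 to 0.017), whose directions are not settled; the log2 ratio of Hey1 to Hes1 ran from -0.17 to 0.37, that of Heyl to Hey1 from -1.80 to -0.89, that of Jag1 to Notch2 from -0.37 to -0.21 and that of Notch3 to Notch2 from -0.36 to -0.15. The causes were not tested. The level per length with the longest transcript was chosen after seeing the data. With the replicate number as a block, 0 genes were called by edgeR and 1596 had an unadjusted p under 0.05, and no member was called. IRE1KO library 5 has no WT library of the same number. It therefore added nothing to the genotype term of that fit, which also had fewer degrees of freedom. The numbers share no stated origin: deviations of same-numbered libraries correlated at 0.15, -0.20, -0.19 and 0.47, and 4 of 8 libraries correlated best with their own number. Dll1 without IRE1KO library 4 or 5 or with libraries 3 and 5 summed, Heyl without IRE1KO library 2, and Jag2 in most fits fell below the filter and gave no value. Depth limits Jag2, Dll1, Hey1 and Heyl, with at most 85 counts per library.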

Other observations

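Nov (Ccn3), a matricellular protein that can bind Notch1, was at 60.6 ± 19.2 CPM in IRE1KO (SD, n = 5), against 102 ± 99.96 CPM in WT (SD, n = 4). Its log2 fold change was -0.75 ± 0.56 SE, with 0.539 as the edgeR quasi-likelihood p adjusted by Benjamini-Hochberg. Mfap2, a microfibril protein, was at 50.3 ± 5.98 CPM in IRE1KO, against 64.0 ± 42.2 CPM in WT. The pair was picked with these values in view.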
